A study of Homo sapiens with 8 samples.

Results

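The matrix metalloproteinases MMP1, MMP2, MMP3, MMP10, MMP13, MMP14 and MMP15 and the tissue inhibitors of metalloproteinases TIMP1, TIMP2 and TIMP3 were followed by RNA sequencing in KYSE70 and KYSE450, 2 human cell lines from squamous cell carcinoma of the esophagus. These 10 genes were taken by symbol from the 48162 genes listed, and each symbol had 1 row. The study raised or lowered NMR, a long noncoding RNA. The 8 libraries form 4 groups, each with 1 library from KYSE70 and 1 from KYSE450, made from cells at passages 5 to 10. In the overexpression group, NMR was raised with a transfected PCDNA3.1 plasmid, and the overexpression control is the control of that arm. In the knockdown group, NMR was lowered with lentivirus packaged in HEK 293T cells, and the knockdown control is the shRNA control of that arm. The sources used here do not say what the control plasmid and the control virus carried, and the level of NMR itself was not analysed here. The arm therefore goes with the delivery method, and the 2 cannot be told apart.

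Matrix metalloproteinases are zinc-dependent enzymes that are made as inactive proenzymes and, once cleaved, cut collagens and other matrix proteins. Most are secreted, while the membrane-type enzymes stay on the cell surface, where MMP14 activates pro-MMP2 with TIMP2 as a bridge. TIMPs bind the active site and block it; TIMP3 differs from the other members in staying bound to the matrix. In squamous carcinomas, collagenases and stromelysins are known from invading cell nests and TIMPs also from the surrounding stroma.

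The promoters of MMP10, TIMP3 and MMP15 are shown because these genes carried the largest within-line differences in log2(FPKM + 1) in the treatment or arm comparisons described below. Each is the 120 bases before the start of the gene in RefSeq on GRCh38.p14, read 5′ to 3′ on the gene's own strand. Capitals mark matches to TGANTCA, the AP-1 type element, and to TATAAA, the TATA box, which were searched on both strands and do not overlap here.
MMP10: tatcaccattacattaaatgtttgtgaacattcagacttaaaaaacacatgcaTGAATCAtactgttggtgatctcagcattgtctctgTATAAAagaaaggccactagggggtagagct
TIMP3: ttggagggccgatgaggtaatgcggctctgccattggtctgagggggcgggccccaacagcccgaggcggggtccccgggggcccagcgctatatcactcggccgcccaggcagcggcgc
MMP15: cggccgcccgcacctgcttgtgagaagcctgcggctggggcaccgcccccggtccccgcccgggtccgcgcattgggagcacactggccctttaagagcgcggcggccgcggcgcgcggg
The MMP10 stretch lies at chr11:102780629-102780748 on the minus strand, with TGANTCA starting at position -67 and TATAAA at position -31 from the gene start. The TIMP3 stretch lies at chr22:32801585-32801704 and the MMP15 stretch at chr16:58025634-58025753, both on the plus strand. For these genes the RefSeq start differs from the GENCODE 29 start used for the gene positions below. By GENCODE 29 the MMP15 gene starts at 58025566, so its stretch lies inside the gene. The TIMP3 gene starts at 32801701, so its stretch runs past that start. Promoters were matched for 5 of the 10 genes, also MMP14 and TIMP1. Over the 250 bases before the start, TGANTCA and TATAAA occurred once each in MMP10 and in none of the other 4. Of 35116 promoter windows of that length, 6.57% held TGANTCA and 10.7% held TATAAA. GC content over 250 bases was 34.4% in MMP10, 72.4% in TIMP3 and 74.8% in MMP15, against a median of 58% over all windows.

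The values are FPKM, reads per length of gene and depth of library, so levels can be set side by side between genes. Whole reads could be recovered from them, 26401805 to 37937856 per library. All 6 squamous markers had a mean FPKM of at least 1 in both lines, with sums of 7411 to 15281 in KYSE70 and 9663 to 25609 in KYSE450, mostly from KRT5 and KRT6A. KRT14 had 38.3 FPKM in the KYSE70 knockdown library and 3.20 to 5.08 in the other KYSE70 libraries, against 371 to 1211 in KYSE450. Of 8 fibroblast markers, 3 in KYSE70 and 2 in KYSE450 reached that mean. COL3A1 reached 21.9 FPKM, THY1 14.6, COL1A1 37.0, LUM 1.09 and PDGFRA 0.578 in their highest library, while COL1A2, DCN and PDGFRB stayed at or below 0.262 FPKM in every library. The 3 leukocyte markers summed to at most 0.832 FPKM. The KYSE70 knockdown library stood apart. Mitochondrial genes took 8.63% of its summed FPKM, against 3.84% to 5.75% in the other libraries, and its differences from its control fell with the GC content of the gene (Spearman -0.483 over 13914 genes, against 0.0422 in KYSE450). With 1 library per line and group, and no label that names separate cultures, a p-value reflects only how these libraries vary.

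**Figure D1:**
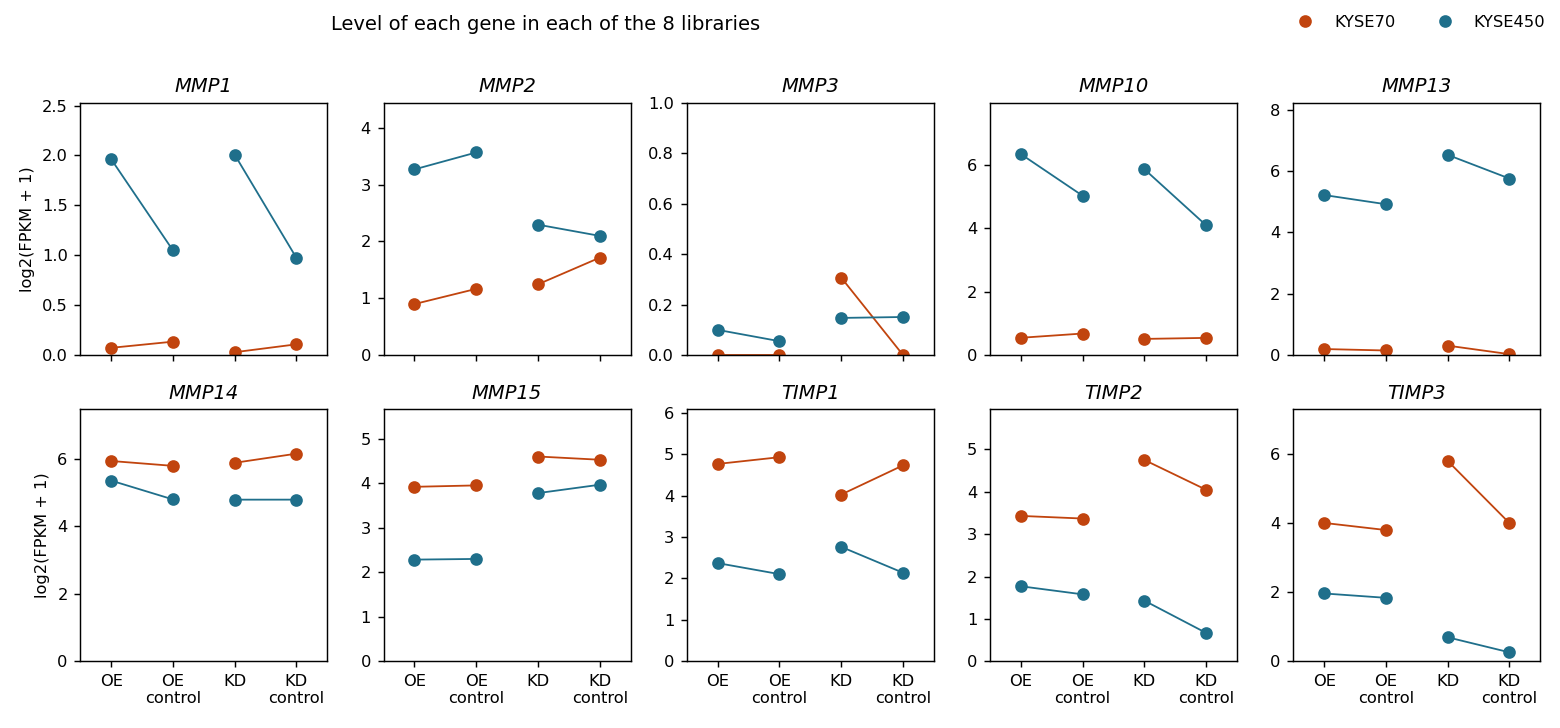
Level of each of the 10 genes in each library, as log2(FPKM + 1) on axes that start at 0 and differ between panels. The groups run along the horizontal axis (OE, overexpression; KD, knockdown), each joined to its control by a line, and the 2 cell lines are in different colours. MMP1, MMP2, MMP10 and MMP13 lie lower in KYSE70 than in KYSE450 in every library, and MMP14, TIMP1, TIMP2 and TIMP3 lie higher.

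KYSE70 was the inhibitor-rich line, with MMP14 and all 3 TIMPs higher than in KYSE450 without overlap. KYSE450 was the line of the secreted enzymes, with MMP1, MMP2, MMP10 and MMP13 lower in KYSE70 without overlap. MMP15 was higher in KYSE70 on average, but its libraries overlapped, and MMP3 was near 0 in both lines, also with overlap, and was not tested. By limma on log2(FPKM + 1) with Benjamini-Hochberg adjustment, all 9 members that reached a mean FPKM of 1 passed the threshold of 0.05, 5 higher and 4 lower in KYSE70. The lines differed at 54.0% of all 14311 genes tested, 26.6% higher and 27.4% lower. Non-overlap of the 4 libraries of each line held for 24.1% of genes higher and 24.5% lower in KYSE70. MMP1, MMP10 and MMP13 passed the filter on low values through KYSE450 alone. For these 3 a difference was built into the filter, and their calls are no separate support.

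MMP13, collagenase 3, had the widest gap between the lines. Its gene lies on chromosome 11 at 102942995 to 102955734 on the minus strand (GRCh38, GENCODE 29), in the same cluster as MMP1, MMP3 and MMP10. In KYSE70, MMP13 had 0.143 FPKM with overexpression, 0.106 in its control, 0.235 with knockdown and 0.0181 in its control, which are 9, 7, 13 and 1 reads. In KYSE450 the values were 36.3 FPKM with overexpression, 29.3 in its control, 91.7 with knockdown and 53.2 in its control. It was at the edge of detection in KYSE70 and was the highest of the 10 genes in KYSE450 on average. The mean over the 4 libraries was 419-fold higher in KYSE450, and the fitted log2 difference, KYSE70 minus KYSE450, was -5.44 (SE 0.26). MMP13 passed the filter through KYSE450 alone, so this value is descriptive.

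MMP10, stromelysin 2, lies next to MMP1 at 102770503 to 102780628. In KYSE70 it had 0.456 FPKM with overexpression, 0.597 in its control, 0.420 with knockdown and 0.452 in its control, which are 16, 22, 13 and 14 reads. KYSE450 cells had 79.7 FPKM with overexpression, 31.4 in its control, 57.0 with knockdown and 16.0 in its control. It held a low, even level in KYSE70 and spread over 4.98-fold in KYSE450, with both treated libraries above both controls. The mean was 95.6-fold higher in KYSE450 (log2 difference -4.76, SE 0.36), again for a gene that passed the filter through KYSE450 alone.

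MMP1, collagenase 1, lies at 102789920 to 102798160. It had 3, 6, 1 and 4 reads in KYSE70 with overexpression, in its control, with knockdown and in its control, or 0.0507, 0.0968, 0.0192 and 0.0767 FPKM. KYSE450 cells had 2.90 FPKM with overexpression, 1.07 in its control, 3.02 with knockdown and 0.962 in its control. As for MMP10, the KYSE450 libraries fell into 2 treated libraries above 2 controls. The mean was 32.6-fold higher in KYSE450 (log2 difference -1.41, SE 0.24), and MMP1 too passed the filter through KYSE450 alone. WTAPP1, on the opposite strand, has exons that overlap MMP1 and MMP3 and stood at 0.0676 to 2.60 FPKM; the sources used here do not state a strand setting, so reads in the overlap could belong to either.

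MMP3, stromelysin 1, lies at 102835801 to 102843803. It was listed at 0 in 3 KYSE70 libraries and had 6 reads, 0.237 FPKM, in the knockdown library. In KYSE450 there were 2 reads with overexpression, 1 in its control, 3 with knockdown and 4 in its control, at most 0.110 FPKM. In the libraries at 0, 3 reads, which a count of 0 allows, would be 0.0996 to 0.118 FPKM. With a mean of 0.0705 FPKM it was below the filter and was not tested; no difference was detectable at this depth outside the KYSE70 knockdown library.

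MMP2, gelatinase A, lies on chromosome 16 at 55389700 to 55506691 on the plus strand and overlaps the exons of AC007336.3 on the same strand. In KYSE70 it had 0.862 FPKM with overexpression, 1.24 in its control, 1.37 with knockdown and 2.28 in its control. In KYSE450 the values were 8.64 FPKM with overexpression, 10.9 in its control, 3.91 with knockdown and 3.28 in its control. In KYSE450 the overexpression arm was the higher one, and in KYSE70 the knockdown arm. MMP2 was 4.64-fold higher in KYSE450 on average (log2 difference -1.55, SE 0.36, limma adjusted p = 0.00949).

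The membrane-type enzymes were the main MMPs of KYSE70. MMP14, on chromosome 14 at 22836557 to 22849027, had 60.1 FPKM with overexpression, 54.3 in its control, 57.9 with knockdown and 70.0 in its control in KYSE70. KYSE450 cells had 39.8 FPKM with overexpression and 26.8, 26.6 and 26.6 in the overexpression control, knockdown and knockdown control libraries. It was the least variable of the 10 genes, within 1.29-fold in KYSE70 and 1.496-fold in KYSE450, and 2.02-fold higher in KYSE70 (log2 difference 1.01, SE 0.15, limma adjusted p = 0.00142). MMP15, on chromosome 16 at 58025566 to 58046901, had 14.2, 14.5, 23.3 and 22.1 FPKM in the same order in KYSE70. In KYSE450 it had 3.88 FPKM with overexpression, 3.93 in its control, 12.7 with knockdown and 14.7 in its control. In both lines MMP15 separated by arm, not by treatment, and its KYSE450 knockdown control lay above both KYSE70 libraries of the overexpression arm. MMP15 was 2.10-fold higher in KYSE70 on average (log2 difference 1.17, SE 0.22, limma adjusted p = 0.00428).

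The 3 TIMPs were all higher in KYSE70. TIMP1, on the X chromosome at 47582313 to 47586789, had 26.1 FPKM with overexpression, 29.4 in its control, 15.3 with knockdown and 25.5 in its control in KYSE70. In KYSE450 it had 4.17 FPKM with overexpression, 3.30 in its control, 5.79 with knockdown and 3.40 in its control. The knockdown library was the lowest of the KYSE70 libraries and the highest of the KYSE450 libraries. TIMP1 was 5.78-fold higher in KYSE70 (log2 difference 2.27, SE 0.26, limma adjusted p = 0.000439).

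TIMP2, on chromosome 17 at 78852977 to 78925387 on the minus strand, had 9.76 FPKM with overexpression, 9.31 in its control, 25.8 with knockdown and 15.5 in its control in KYSE70. In KYSE450 it had 2.41 FPKM with overexpression, 1.99 in its control, 1.70 with knockdown and 0.592 in its control. The knockdown arm was the higher arm in KYSE70 and the lower one in KYSE450. TIMP2 was 9.03-fold higher in KYSE70 (log2 difference 2.53, SE 0.34, limma adjusted p = 0.000863). Its exons overlap those of CEP295NL on the same strand and of AC022966.1 on the opposite strand, so reads there cannot be assigned with certainty.

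TIMP3, on chromosome 22 at 32801701 to 32863043, varied more than TIMP1 and TIMP2, over 4.24-fold in KYSE70 and 14.6-fold in KYSE450. In KYSE70 it had 15.2 FPKM with overexpression, 13.02 in its control, 55.2 with knockdown and 15.1 in its control. In KYSE450 it had 2.92 FPKM with overexpression, 2.59 in its control, 0.624 with knockdown and 0.200 in its control, the last from 35 reads. A single KYSE70 library, knockdown, stood above the rest of that line, and the knockdown arm was the low arm in KYSE450. TIMP3 was 15.6-fold higher in KYSE70 (log2 difference 3.22, SE 0.51, limma adjusted p = 0.00191).

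Set in order by mean FPKM over the 4 libraries of a line, KYSE70 ran from MMP14 (60.6 ± 6.75, SD, n = 4) through TIMP3 (24.6 ± 20.4), TIMP1 (24.1 ± 6.11), MMP15 (18.5 ± 4.86) and TIMP2 (15.1 ± 7.68) to MMP2 (1.44 ± 0.601), MMP10 (0.481 ± 0.0790), MMP13 (0.126 ± 0.0898), MMP1 (0.0609 ± 0.0336) and MMP3 (0.0593 ± 0.119). MMP14 lay apart at the top, with only the TIMP3 knockdown value above its lowest library. TIMP3, TIMP1, MMP15 and TIMP2 overlapped one another, MMP2 and MMP10 each stood apart, and MMP13, MMP1 and MMP3 overlapped. KYSE450 ran from MMP13 (52.7 ± 27.9, SD, n = 4), MMP10 (46.0 ± 28.1) and MMP14 (30.0 ± 6.58), which overlapped one another, through MMP15 (8.80 ± 5.71), MMP2 (6.67 ± 3.68) and TIMP1 (4.17 ± 1.15), which overlapped as well. MMP1 (1.99 ± 1.12), TIMP2 (1.67 ± 0.778) and TIMP3 (1.58 ± 1.37) overlapped one another below these, and MMP3 (0.0818 ± 0.0337) was last.

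Summed per library, the 7 MMPs came to 75.8 FPKM with overexpression, 70.8 in its control, 83.4 with knockdown and 94.96 in its control in KYSE70. In KYSE450 they summed to 171, 103, 195 and 115 FPKM in that order. The 3 TIMPs summed to 51.1 FPKM with overexpression, 51.7 in its control, 96.3 with knockdown and 56.1 in its control in KYSE70, and to 9.503, 7.88, 8.11 and 4.20 in KYSE450. The ratio of summed MMP to summed TIMP FPKM was 1.48, 1.37, 0.866 and 1.69 in KYSE70 and 18.0, 13.1, 24.1 and 27.4 in KYSE450. The KYSE70 knockdown library was the only 1 of the 8 in which the 3 TIMPs summed to more than these 7 MMPs. TIMP3 made up 57.4% of its TIMP sum. Other expressed MMPs are outside the MMP sum, with MMP11 at 15.2 and MMP17 at 3.85 FPKM in that library. The order of the sums therefore applies to the 7 chosen MMPs only.

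**Figure D2:**
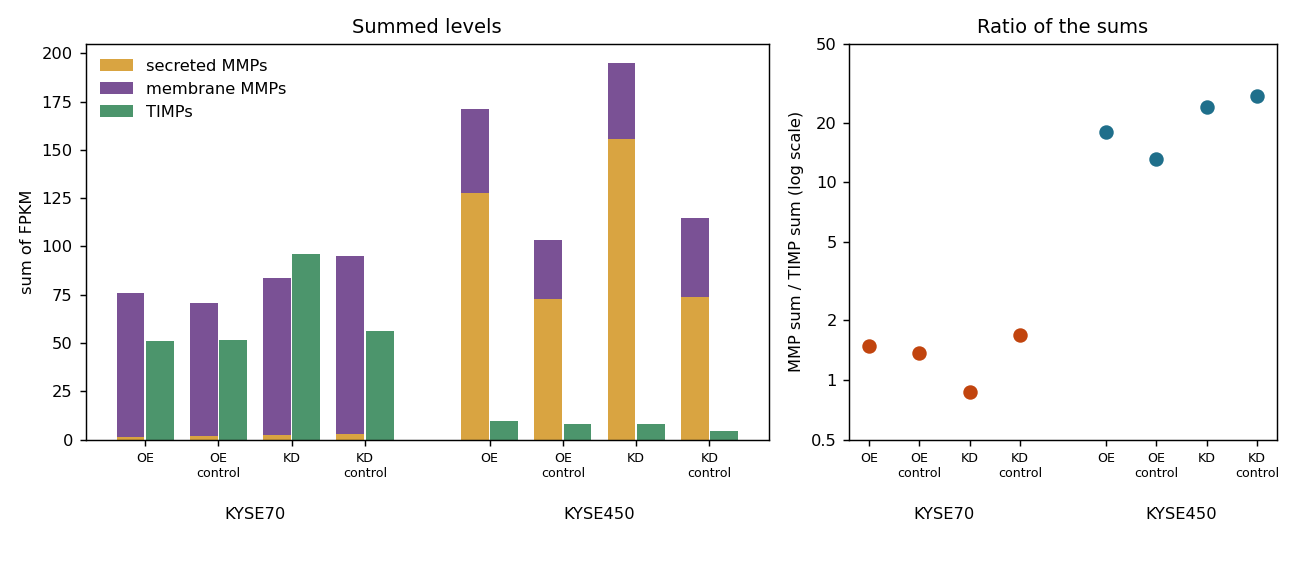
Left, summed FPKM of the secreted MMPs (MMP1, MMP2, MMP3, MMP10 and MMP13) stacked with the membrane-type MMPs (MMP14 and MMP15), beside the summed FPKM of the 3 TIMPs, in each library (OE, overexpression; KD, knockdown); right, the MMP sum divided by the TIMP sum on a log scale. Secreted MMPs are a thin layer in KYSE70 and the larger part in KYSE450, and the ratio lies between 0.866 and 1.69 in KYSE70 and between 13.1 and 27.4 in KYSE450.

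The overexpression comparison asks how these genes stood after NMR was raised. By the counting interval, the secreted enzymes MMP10, MMP1 and MMP13 were higher and MMP2 was lower in KYSE450, none of them with an interval that excludes 1 in KYSE70, and MMP14 was the only tested member whose counting interval lay above 1 in both lines. In KYSE450, MMP10 had 79.7 FPKM with overexpression and 31.4 in the control, a ratio of 2.53 (95% exact binomial interval 2.36 to 2.73), and MMP1 a ratio of 2.71 (2.00 to 3.73). In KYSE70 the ratios were 0.763 (0.374 to 1.52) for MMP10 and 0.524 (0.0849 to 2.46) for MMP1, both with an interval that holds 1. MMP13 had ratios of 1.35 (0.447 to 4.26) in KYSE70 and 1.24 (1.16 to 1.32) in KYSE450, and MMP2 of 0.694 (0.465 to 1.03) and 0.796 (0.699 to 0.906). MMP14 had ratios of 1.11 (1.04 to 1.17) in KYSE70 and 1.49 (1.37 to 1.62) in KYSE450. These intervals cover counting error only, since each ratio sets 1 library against 1. Without molecular identifiers, copies of 1 molecule are counted apart, so the intervals can be too narrow even for counting error. Over all genes tested, the interval lay above 1 in both lines for 4.21%, above 1 in KYSE450 for 16.2% and above 1 in KYSE70 for 18.4%.

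None of the 9 members passed the test between overexpression and its control, and neither did any other gene: limma called 0 of 14311 genes, 0.00%, with 148 genes at an unadjusted p under 0.05, and voom on the recovered reads called 0. The median log2 difference of the 9 was 0.17, against -0.01 over all genes, and 7 of them were above 0. The log2 difference was 0.59 for MMP10 (SE 0.47, -0.13 in KYSE70 and 1.31 in KYSE450), 0.43 for MMP1 (SE 0.33, -0.06 and 0.91) and 0.35 for MMP14 (SE 0.16, 0.14 and 0.56), each at an adjusted p of 0.9998 by limma (n = 2 pairs). A log2 difference past 1 was found for 0.273% of all genes in KYSE450, MMP10 among them. The remaining values were -0.28 for MMP2, 0.17 for MMP13 and TIMP3, 0.13 for TIMP2, 0.05 for TIMP1 and -0.02 for MMP15. MMP15 had ratios of 0.977 (0.894 to 1.07) in KYSE70 and 0.987 (0.826 to 1.18) in KYSE450, and both intervals hold 1.

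The knockdown comparison asks how the genes stood after NMR was lowered. TIMP3, TIMP2 and MMP13 were higher than in the control in both lines by the counting interval. TIMP3 had 55.2 FPKM with knockdown and 15.1 in its control in KYSE70, a ratio of 3.65 (3.47 to 3.85), and 0.624 and 0.200 FPKM in KYSE450, a ratio of 3.12 (2.08 to 4.77). TIMP2 had ratios of 1.67 (1.56 to 1.79) in KYSE70 and 2.87 (2.16 to 3.83) in KYSE450. MMP13 had a ratio of 13.01 (1.95 to 553) in KYSE70, from 13 reads against 1, and of 1.72 (1.66 to 1.79) in KYSE450. An interval above 1 in both lines was found for 11.4% of all genes tested, and 3 of the 9 tested members had it.

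In the test across lines, none of the 9 members passed: limma called 0 of 14311 genes between knockdown and its control, 0.00%, with 1794 at an unadjusted p under 0.05 and a smallest adjusted p of 0.0587. On the recovered reads, voom called 4 genes, 0.0280%, with TIMP3 among them (voom adjusted p = 0.0434). By limma the log2 difference of TIMP3 was 1.12 (SE 0.30, 1.80 in KYSE70 and 0.44 in KYSE450, adjusted p = 0.318, n = 2 pairs), that of TIMP2 was 0.73 (SE 0.16, 0.70 and 0.76, adjusted p = 0.274) and that of MMP13 was 0.53 (SE 0.19, 0.28 and 0.77, adjusted p = 0.362). The log2(FPKM + 1) scale understates the change of low values such as TIMP3 in KYSE450. The median of the 9 was 0.48, against -0.0021 over all genes, with 5 above 0.

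Beside TIMP3 and TIMP2, COL3A1, a fibrillar collagen and fibroblast marker, had 21.9 FPKM with knockdown against 3.80 in the control of KYSE70, and 2.005 against 0.617 FPKM in KYSE450. The 8 fibroblast markers summed to 63.8 FPKM with knockdown and 48.3 in its control in KYSE70, and to 40.0 and 32.4 in KYSE450. The others did not move together. THY1 had 11.5 FPKM with knockdown and 14.6 in its control in KYSE70, and 0.219 and 0.0633 in KYSE450. In the same order, PDGFRA had 0.0206 and 0.578, then 0.168 and 0.273, and LUM 0 and 0.0236, then 0.257 and 1.09. COL1A1 had 30.2 and 29.2, then 37.0 and 30.2, and COL1A2 0.0480 and 0.0960, then 0.195 and 0. PDGFRB had 0.101 and 0, then 0.114 and 0.105. DCN was at 0.0336 and 0 FPKM in KYSE70 and at 0 in both KYSE450 libraries. The endothelial marker VWF had 1.79 FPKM with knockdown and 0.926 in its control in KYSE70, and 1.79 and 0.717 in KYSE450. The part of other cells in the result was not tested. With the trends on GC content and length removed within each line, the log2 difference was 1.10 for TIMP3 and 0.79 for TIMP2.

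The KYSE450 knockdown control was itself low for several of the genes. It held the lowest KYSE450 value of TIMP2 and TIMP3, and of MMP1, MMP2 and MMP10, and the highest of MMP15. For MMP1 its ratio to the overexpression control was 0.901 (0.627 to 1.30), an interval that holds 1. For MMP2 the ratio of the knockdown library to it was 1.19 (0.978 to 1.45), which also holds 1. The KYSE450 knockdown level of TIMP3, 0.624 FPKM, lay above the knockdown control but below the overexpression control at 2.59, and TIMP2 likewise had 1.70 FPKM between 0.592 and 1.99. In KYSE70, TIMP3 with knockdown was above both controls, at 15.1 and 13.02 FPKM, and TIMP2 at 25.8 was above 15.5 and 9.31. MMP13 with knockdown was above both controls in KYSE450; in KYSE70 it had 13 reads, against 1 in the knockdown control and 7 in the overexpression control, and the ratio to the overexpression control was 2.21 (0.820 to 6.54), an interval that holds 1. Since each line has 1 library per group, a response to knockdown and a deviation of the control library cannot be told apart.

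The other secreted enzymes split by line under knockdown. MMP10 in KYSE450 had 57.0 FPKM with knockdown and 16.0 in its control, a ratio of 3.56 (3.27 to 3.89), and MMP1 a ratio of 3.14 (2.37 to 4.19); 27.9% of all genes had an interval above 1 there. In KYSE70 the ratios were 0.929 (0.402 to 2.13) for MMP10 and 0.250 (0.00508 to 2.53) for MMP1, from 1 read against 4. The fitted log2 differences were 0.87 (SE 0.47, limma adjusted p = 0.448) for MMP10 and 0.48 (SE 0.33, limma adjusted p = 0.528) for MMP1. By the counting interval, MMP10 and MMP1 were thus higher in KYSE450 in both the knockdown and the overexpression library than in the matched control. MMP13 was as well, at ratios of 1.72 with knockdown and 1.24 with overexpression. The share of all genes with an interval above 1 in both of these comparisons is not given. Each of these ratios sets 1 library against 1, and the cause was not tested.

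TIMP1 was on opposite sides of its control in the lines. It had 15.3 FPKM with knockdown and 25.5 in its control in KYSE70, a ratio of 0.599 (0.521 to 0.687), and 5.79 and 3.40 FPKM in KYSE450, a ratio of 1.70 (1.31 to 2.21). Intervals on opposite sides of 1 were found for 17.7% of all genes, and the fitted log2 difference was -0.04 (SE 0.30, limma adjusted p = 0.963). That fitted difference changed sign with GC and length trends removed. MMP2 had ratios of 0.6003 (0.432 to 0.828) in KYSE70 and 1.19 (0.978 to 1.45) in KYSE450. MMP14 had ratios of 0.826 (0.778 to 0.878) in KYSE70 and 0.9996 (0.919 to 1.09) in KYSE450, and MMP15 of 1.05 (0.978 to 1.14) and 0.869 (0.796 to 0.949). Their fitted log2 differences ran from -0.14 to -0.06.

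**Figure D3:**
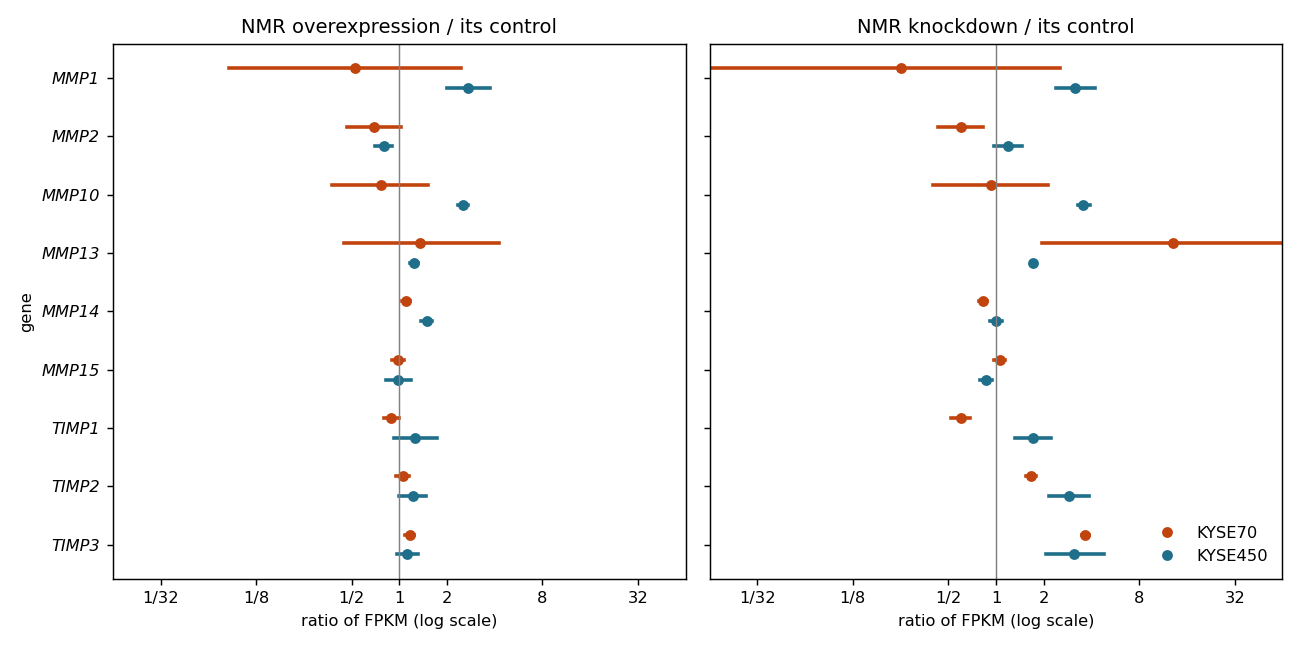
Ratio of FPKM in overexpression to its control (left) and in knockdown to its control (right) for the 9 tested genes on a log scale, with 1 point per cell line and bars for the 95% counting interval; MMP3 is not drawn, and bars that leave the axis are cut at its edge. TIMP2, TIMP3 and MMP13 lie right of 1 in both lines with knockdown. MMP1, MMP10 and MMP13 lie right of 1 with their whole bar in KYSE450 in both panels, and MMP15 lies close to 1.

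The control libraries of the arms were compared to see how the genes differed without an intended change of NMR. MMP15 was the member furthest from 0: it had 22.1 FPKM in the knockdown control and 14.5 in the overexpression control in KYSE70, and 14.7 and 3.93 FPKM in KYSE450. The ratio was 1.53 (1.41 to 1.65) in KYSE70 and 3.73 (3.25 to 4.29) in KYSE450. It was the single tested member with an interval above 1 in both lines, which 22.2% of all genes had, and none was below 1 in both, against 14.0% of genes. By limma its log2 difference was 1.12 (SE 0.32, adjusted p = 0.214), and it passed in the model with pair terms (adjusted p = 0.0150), in which 1090 genes were called. The main model called 0 of 14311 genes between the controls, 0.00%, with 2078 at an unadjusted p under 0.05 and 0 by voom. MMP2, TIMP2 and TIMP3 were on opposite sides in the lines. The share of all genes with intervals on opposite sides is not given for the controls, so these ratios describe the named genes only. MMP2 had ratios of 1.84 (1.34 to 2.53) in KYSE70 and 0.302 (0.257 to 0.355) in KYSE450, and TIMP2 of 1.66 (1.53 to 1.81) and 0.297 (0.223 to 0.393). TIMP3 had ratios of 1.16 (1.09 to 1.24) in KYSE70 and 0.0773 (0.0529 to 0.110) in KYSE450, the last from 35 reads against 323.

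Whether the arms differed in unlike ways in the lines was tested as an interaction: knockdown arm minus overexpression arm, treated and control libraries averaged, in KYSE70 minus the same in KYSE450. MMP2, TIMP2 and TIMP3 passed, and all 3 were higher in the knockdown arm in KYSE70 and lower in it in KYSE450. MMP2 differed between the arms by 0.45 in KYSE70 and -1.22 in KYSE450, an interaction of 1.67 (SE 0.29, limma adjusted p = 0.0273). TIMP2 differed by 0.997 and -0.62, an interaction of 1.62 (SE 0.23, limma adjusted p = 0.0168). TIMP3 differed by 0.9996 and -1.43, an interaction of 2.43 (SE 0.43, limma adjusted p = 0.0285). Across all genes, 6.37% passed, 4.84% higher and 1.54% lower, and the median interaction was 0.12. No arm was repeated within a line, so the SE and p-value do not cover variation between repeats of an arm.

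The interaction calls of MMP2, of TIMP2, its activation partner and inhibitor, and of TIMP3 depended on the filter on low values: without a filter 0 genes passed, and the adjusted p was 0.179 for MMP2, 0.174 for TIMP2 and 0.187 for TIMP3. TIMP3 was at 0.0527 after quantile normalization, and TIMP2 at 0.0679 and 0.0772 without the overexpression library of KYSE70 and of KYSE450. Median-ratio scaling called 471 genes higher and 509 lower, so the excess of higher calls rested on the scaling, while the 3 genes kept their call. With the same filter, voom on the recovered reads gave an adjusted p of 0.0393 for MMP2, 0.0278 for TIMP2 and 0.00299 for TIMP3. VWF, an endothelial marker, also passed at 1.34 (SE 0.27, limma adjusted p = 0.0392) with 0.717 to 4.24 FPKM, while CDH5 stayed at or below 0.138; the part of other cells in the result was not tested.

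MMP15 and MMP13 ran the other way without passing in the limma fit of log2(FPKM + 1). MMP15 was higher in the knockdown arm in both lines, by 0.63 in KYSE70 and 1.58 in KYSE450, an interaction of -0.95 (SE 0.22, limma adjusted p = 0.0522). It passed by voom on the recovered reads (adjusted p = 0.0310), after median-ratio scaling (0.0386), after quantile normalization (0.0428) and with GC and length trends removed (0.0447). It did not pass without a filter (0.179), and with 1 library left out its adjusted p ran from 0.0013 to 0.393. MMP13 differed by -0.0044 in KYSE70, where it was near 0, and 1.08 in KYSE450, an interaction of -1.08 (SE 0.27, limma adjusted p = 0.0607). Its adjusted p was 0.0466 with GC and length trends removed, 0.232 by voom, 0.206 without a filter and 0.000298 to 0.357 with 1 library left out. The values of TIMP1, MMP14, MMP10 and MMP1 were -0.68, 0.44, 0.62 and -0.02, at limma adjusted p of 0.259 to 0.980.

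**Figure D4:**
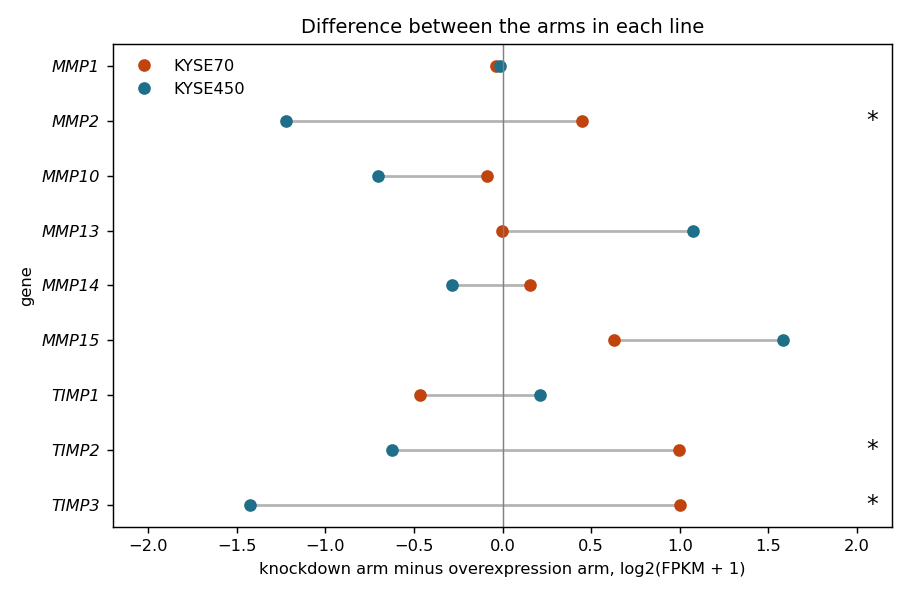
Knockdown arm minus overexpression arm on the log2(FPKM + 1) scale, treated and control libraries averaged, in each cell line for the 9 tested genes; asterisks mark an interaction at a limma adjusted p under 0.05. MMP2, TIMP2 and TIMP3 lie above 0 in KYSE70 and below 0 in KYSE450, and MMP15 lies above 0 in both lines.

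Among 45 other genes of the pathway, 23 had a mean FPKM of at least 1. Between the lines 10 of the 23 were higher and 7 lower in KYSE70, where 26.6% and 27.4% of all genes tested were. Among the higher ones were SPOCK1, a proteoglycan of the testican family (log2 difference 2.37), MMP11, stromelysin 3 (1.77), and THBS1, a matricellular protein (1.83). The lower ones with the smallest p were TFPI2, a serine protease inhibitor of the matrix (-2.17), PLAU, urokinase (-2.06), and the proprotein convertases FURIN (-1.001) and PCSK6 (-1.35), of which FURIN cleaves pro-MMP14. PLAU had 0 to 0.0265 FPKM in KYSE70 and 2.30 to 4.19 FPKM in KYSE450. TFPI2 had 0.116 to 0.244 FPKM in KYSE70, and SPOCK1 0.384 to 0.753 FPKM in KYSE450; PLAU, TFPI2 and SPOCK1 passed the filter through 1 line alone, so for them too a difference was built into it. The other 4 named genes had a limma adjusted p of at most 0.000766. Of the other 16 MMPs, 2 passed the filter, MMP11 and MMP17, and both were higher in KYSE70; MMP9, gelatinase B, stayed at or below 0.0485 FPKM and MMP7, matrilysin, at or below 0.321. TIMP4 was listed at 0 in all 8 libraries.

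None of the 23 passed for overexpression, for knockdown or between the controls. In the interaction, 1 of the 23 was higher and 2 were lower, against 4.84% and 1.54% of all genes tested. RECK, a membrane-anchored MMP inhibitor, had 8.90 FPKM with knockdown, 4.82 in its control, 1.58 with overexpression and 1.55 in its control in KYSE70, and 3.33 to 3.81 FPKM in KYSE450 (interaction 1.47, SE 0.29, limma adjusted p = 0.0363). LCN2, lipocalin 2, which binds MMP9, had 149 FPKM with knockdown, 278 in its control, 1.71 with overexpression and 0.899 in its control in KYSE450, and 0.451 to 1.07 FPKM in KYSE70 (interaction -6.17, SE 0.42, limma adjusted p = 0.00345); it passed the filter on low values through the KYSE450 knockdown arm alone, so a difference was built in there too. ADAMTS1, a secreted proteoglycan-cleaving protease, had 4.27 FPKM with knockdown, 4.04 in its control, 11.7 with overexpression and 10.3 in its control in KYSE70, and 9.69 to 15.4 FPKM in KYSE450 (interaction -1.33, SE 0.28, limma adjusted p = 0.0421).

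With the mean of each line taken out, MMP1 and MMP10 moved together over the 8 libraries (Pearson r of log2(FPKM + 1) 0.914), as did TIMP2 and TIMP3 (0.888) and MMP13 and MMP15 (0.770), while MMP2 and MMP13 ran opposite (-0.792). These are descriptions over libraries that share lines and arms. In KYSE70, MMP1, MMP10 and MMP13 had at most 22 reads per library and varied little on this scale. The correlations that involve them rest mostly on the KYSE450 libraries. By the same measure over all genes tested, the gene most like each member was INHA for MMP1 (0.971), ACYP2 for MMP2 (0.982), PLA2R1 for MMP10 (0.995) and RBFA for MMP13 (0.990). It was TSC22D1 for MMP14 (0.959), TOMM20 for MMP15 (0.997), SLC35E1 for TIMP1 (0.980), CCDC117 for TIMP2 (0.989) and ZFYVE9 for TIMP3 (0.995). The second in order were MOXD1, AK1, LINC00648, TRAF5, LGALS9, IRF2, CTC-232P5.1, DISP1 and RBMS3, at 0.953 to 0.993. With 8 libraries and 14311 genes, values this high were reached for every member.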

How the data were processed

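RNA sequencing libraries were grouped by the source names in the labels. The values the authors deposited, 1 per gene and library, behave as FPKM, that is, reads divided by gene length and library depth; no label names the unit. Per the submitters' processing notes, TopHat2 2.0.9 and HTSeq 0.6.1 were used with build hg19, in roles not given; the annotation was not stated. In 30872 of 30872 genes above 0 in 2 or more libraries, the values were whole multiples of 1 read within 0.02, and these are called reads. The 14311 genes at a mean FPKM of 1 or more were fitted as log2(FPKM + 1) with limma 3.58.1 (trend, R 4.3.3), Benjamini-Hochberg threshold 0.05, over all 8 libraries. Overexpression, knockdown and the interaction had pair terms (4 pairs of treated and control library); cell line and controls had cell line and group terms. Replicate 1 is KYSE70 and replicate 2 KYSE450, so the numbers pair the libraries by cell line. Voom on the reads used scaling by the trimmed mean of M values. The fits were tested on simulated data. Ratio intervals (95%) are exact binomial intervals of the reads, given their totals. The files hold no coordinates; positions are GENCODE 29 on GRCh38, by gene identifier. Members and lists were chosen with earlier results of these data known. All members were named, other pathway genes past the threshold up to 4 per direction by p, and the 2 most alike genes per member. A gene that this rule takes is not reported here. The removal of GC and length trends was added after the data were seen.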

Additional observations from a re-analysis of the deposited data

Results flagged for a closer look

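The difference between the arms differed between the cell lines for MMP2 (interaction 1.67 on the log2 scale), TIMP2 (1.62) and TIMP3 (2.43), each past the limma threshold with the filter on low values and none without it. TIMP1 lay lower in knockdown than in its control in KYSE70 and higher in KYSE450. The log2 differences in the lines differed by -1.33, KYSE70 minus KYSE450, and this difference was not tested. Counting intervals on opposite sides of 1 were found for 17.7% of all genes. In KYSE70 the knockdown differences fell with GC content (Spearman -0.483), and the fitted direction of TIMP1 turned with GC and length trends removed.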

How the results depend on the processing

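Between the cell lines, all 9 tested members kept direction and call under every alternative run that tested them. For MMP1, MMP10 and MMP13 a difference was built into the filter, so their unchanged calls are no separate support. MMP1 and MMP2, at a mean of 1.02 and 4.06 FPKM, were not tested in the run at a mean FPKM of at least 5. With no replicate block, 0 genes were called for overexpression and for knockdown, as with pair terms, and 0 between the controls, as with cell line and group terms; no member's call changed. The count of genes called for overexpression moved to 12 with only the 4 libraries of the arm and 0 to 12 with 1 library left out. For knockdown it was 3 with a pseudocount of 0.1, 4 with voom, 37 with only the 4 libraries of the arm, and 36 to 4833 with 1 library left out, 4833 and 4832 without KYSE450 knockdown and its control, 580 and 582 without KYSE70 knockdown and its control. Between the controls it was 1090 with pair terms, 73 with the 4 control libraries alone and 0 to 11 with 1 library left out. In the interaction it was 0 without a filter, 511 at a mean FPKM of at least 5, 541 after quantile normalization, 1662 with GC and length trends removed, and 330 to 6101 with 1 library left out, below 912 whichever library of the overexpression arm was left out and above it whichever of the knockdown arm was. Where a left-out library leaves 1 pair in an arm, that pair is assumed to vary like the others. Beyond left-out libraries, the direction turned for TIMP1 with overexpression by voom (-0.046), and with knockdown for TIMP1 at a pseudocount of 0.1 (0.006) and, with GC and length trends removed, for TIMP1 (0.15) and MMP15 (0.11). With 1 library left out, directions also turned where a value rests on 1 line. With overexpression, the log2 difference ran from -0.062 to 0.915 for MMP1, -0.134 to 1.314 for MMP10 and -0.163 to 0.266 for TIMP1. With knockdown it ran from -0.079 to 1.035 for MMP1, -0.47 to 0.198 for MMP2, -0.032 to 1.77 for MMP10, -0.188 to 0.073 for MMP15 and -0.704 to 0.624 for TIMP1. Between the controls it ran from -0.416 to 0.314 for MMP1, -1.239 to 0.319 for MMP2, -1.342 to 0.272 for MMP10, -0.085 to 0.804 for MMP13, -0.059 to 0.414 for MMP14, -0.452 to 0.288 for TIMP1, -0.676 to 0.444 for TIMP2 and -1.525 to 0.145 for TIMP3. In the interaction it ran from -0.577 to 0.537 for MMP1 and -0.283 to 1.52 for MMP10. The cause was not tested. Summing the rows of a repeated symbol changed nothing, because each member has 1 row. Depth limits MMP3 in both lines and MMP1, MMP10 and MMP13 in KYSE70, at 0 to 22 reads per library.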
